A study of Mus musculus with 24 samples.

Results

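The genes described here were 53 genes of S phase and mitosis that mark dividing cells, followed across all 9 groups of a microarray study of stromal cells sorted from mouse fat. A gene was read from a row of the value table that named it and no other gene, and, where several rows did so, from the one whose mean over the 24 arrays was highest. By this rule 51 of the 53 genes were measured, out of 22180 genes with such a row. Ccne2, a cyclin of the start of S phase, was named only on a row shared with Ints8, and Ccnb1, a mitotic cyclin, had no row of its own. All 51 had at least 2 arrays above that array's own median and so were among the 15496 genes tested.

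Gonadal fat was taken from male C57Bl/6 mice that were lean on a normal diet (ND), obese on a high-fat diet with 60% fat (HFD), or formerly obese (WL). The WL mice had eaten the HFD for 12 weeks and had then been off it for 8 weeks. Live cells had been sorted after collagenase digestion into macrophages (adipose tissue macrophages, ATM) without or with CD11c on their surface, dendritic cells (ATDC) and preadipocytes (PA), which can mature into fat cells. The groups were ND, HFD and WL CD11c- ATM, HFD and WL CD11c+ ATM, ND and HFD ATDC, and ND and HFD PA, and CD11c+ ATM of ND mice were too few to purify. ND CD11c- ATM, ND ATDC and WL CD11c- ATM had 2 arrays each and the other groups 3. ND ATM and ATDC each came as 2 pools, for which the labels name 4 mice without saying whether that is per pool or in all. For the HFD and PA groups 3 pools of 3 to 4 mice were made. The p-values rest on the spread between arrays within groups, taken over all groups. For ND and HFD groups that is a spread between pools. The sources used here do not state how WL samples were pooled, the age of the mice, the weeks of HFD in the HFD groups or the other sorting markers.

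A dividing cell copies its DNA in S phase and parts the copies in mitosis. Before S phase Cdc6 helps to load the MCM ring (Mcm2 to Mcm7) onto origins of replication. At the start of S phase Cdc45 and the GINS complex turn the ring into a running helicase. The sliding clamp Pcna holds the polymerases on DNA, while Rrm1, Rrm2, Tyms and Tk1 supply the nucleotides. Transcription of these genes is switched on largely by E2f factors once the retinoblastoma protein is phosphorylated. The genes of G2 and mitosis include Cdk1, its cyclins, the Aurora and Polo kinases, the kinetochore proteins and the spindle motors. In resting cells the DREAM complex represses many of them through CHR elements (TTTGAA and its variants) near their start sites. They are switched on later by Mybl2 and Foxm1. Their promoters often hold CCAAT boxes as well. Macrophages in fat are known to be replenished both from blood monocytes and by division in the tissue, and preadipocytes divide when fat expands.

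Promoters are shown for 5 of the genes that passed the test in more than 1 comparison. Others that did, such as Rrm2, Top2a and Ube2c, are not shown, and no window was found for Ccna2. Some of these comparisons share arrays. The sequences are those of RefSeq on GRCm38.p6, from 250 bases before to 50 bases after the start site, written along the gene's strand. Capitals mark the letters of a CCAAT box on either strand. They also mark the CHR letters TTTGAA and a variant that differs in the middle of the element, TTTAAA, which is its own reverse complement. A box that lies on the other strand appears here in its complement, as ATTGG. Ccnb2, a cyclin partner of Cdk1, lies at chr9:70421505-70421804 on the minus strand. Cdk1, the kinase that drives entry into mitosis, lies at chr10:69352863-69353162 on the minus strand. Birc5, the survivin of the chromosomal passenger complex, lies at chr11:117848987-117849286 on the plus strand. Nuf2, a part of the kinetochore complex that grips microtubules, lies at chr1:169531415-169531714 on the minus strand. Mki67, which codes for the proliferation marker Ki-67 that coats mitotic chromosomes, lies at chr7:135716330-135716629 on the minus strand.
Ccnb2: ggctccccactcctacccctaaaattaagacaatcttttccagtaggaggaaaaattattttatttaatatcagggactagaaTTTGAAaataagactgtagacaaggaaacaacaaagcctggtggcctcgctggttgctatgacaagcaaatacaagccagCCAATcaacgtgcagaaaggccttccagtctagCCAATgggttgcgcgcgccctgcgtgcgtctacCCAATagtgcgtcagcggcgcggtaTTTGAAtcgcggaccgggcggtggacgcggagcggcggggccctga
Cdk1: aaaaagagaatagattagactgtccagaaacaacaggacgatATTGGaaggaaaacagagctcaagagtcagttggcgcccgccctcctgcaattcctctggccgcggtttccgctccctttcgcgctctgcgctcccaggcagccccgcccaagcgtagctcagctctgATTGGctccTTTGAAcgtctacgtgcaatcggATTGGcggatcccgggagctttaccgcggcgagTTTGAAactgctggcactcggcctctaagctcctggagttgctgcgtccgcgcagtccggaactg
Birc5: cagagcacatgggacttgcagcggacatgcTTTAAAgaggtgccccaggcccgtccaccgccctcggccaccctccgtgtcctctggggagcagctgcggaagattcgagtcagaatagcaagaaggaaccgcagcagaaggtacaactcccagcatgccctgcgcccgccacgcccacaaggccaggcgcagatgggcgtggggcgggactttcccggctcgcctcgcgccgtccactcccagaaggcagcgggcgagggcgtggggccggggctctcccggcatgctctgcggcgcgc
Nuf2: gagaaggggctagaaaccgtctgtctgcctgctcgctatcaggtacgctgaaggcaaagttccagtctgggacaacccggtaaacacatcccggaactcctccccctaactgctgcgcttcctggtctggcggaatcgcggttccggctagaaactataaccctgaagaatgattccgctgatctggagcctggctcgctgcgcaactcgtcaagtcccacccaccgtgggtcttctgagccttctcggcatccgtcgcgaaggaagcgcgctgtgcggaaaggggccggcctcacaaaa
Mki67: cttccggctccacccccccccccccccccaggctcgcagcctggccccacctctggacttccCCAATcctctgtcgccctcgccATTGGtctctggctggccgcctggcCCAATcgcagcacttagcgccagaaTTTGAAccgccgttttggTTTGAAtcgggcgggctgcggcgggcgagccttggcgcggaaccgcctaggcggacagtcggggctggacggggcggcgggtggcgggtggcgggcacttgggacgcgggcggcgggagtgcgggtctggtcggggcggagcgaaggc
The Ccnb2, Cdk1 and Mki67 windows each held 3 CCAAT and 2 TTTGAA, the Birc5 window held 1 TTTAAA and neither of the others, and the Nuf2 window held none of these letters. RefSeq windows were found for 44 of the 53 genes, 47 windows in all. CCAAT stood in 35 of the 47 (74.5%), against 37.4% of all 32851 windows of this length. TTTGAA stood in 23 (48.9%, against 17.9%), TTTAAA in 14 (29.8%, against 13.2%) and the E2f-type letters TTCCCGC in 7 (14.9%, against 4.6%), each searched on both strands with overlapping matches counted. Both CCAAT and TTTGAA stood in 22 windows (46.8%), against 7.0% of all windows. A match is a description of letters, not a measured binding site.

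The deposited values were RMA-normalized log2 expression values, so a difference of 1 is a doubling, and the median of an array over all rows lay between 2.96 and 3.15. The sorted cells carried the markers of their labels. The median of 12 macrophage markers was 9.52 to 10.7 on the ATM arrays and 7.81 to 9.46 on the ATDC arrays, the median of 11 dendritic cell markers was 8.03 to 8.76 on the ATDC arrays against 4.06 to 5.55 on the ATM arrays, and the median of 11 preadipocyte and fibroblast markers was 10.1 to 10.9 on the PA arrays. Itgax, which codes for CD11c, was below the array median on both ND CD11c- arrays but at 4.93 to 7.07 on HFD CD11c- and at 5.94 and 7.10 on WL CD11c- arrays, against 7.70 to 9.19 on CD11c+ arrays. Mean correlation with the other arrays of the own group was 0.957 to 0.985 outside the WL groups and 0.915 to 0.945 in the WL groups. Apart from their groups stood WL CD11c+ ATM replicate 1 (correlation 0.915), HFD CD11c- ATM replicate 3 (preadipocyte markers at 9.25, against 7.19 and 7.32) and HFD ATDC replicate 1 (NK cell markers at 7.45, against 5.08 and 5.15).

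The division genes were highest in dendritic cells of either diet and in CD11c+ macrophages of obese mice, and lowest in lean preadipocytes. The level of the set on an array was taken as the median log2 value over the 51 genes. It was 6.55 ± 0.13 (SD, n = 3) in HFD ATDC, 6.47 ± 0.07 (n = 3) in HFD CD11c+ ATM and 6.34 ± 0.19 (n = 2) in ND ATDC, and the arrays of these 3 groups overlapped. WL CD11c+ ATM followed at 5.87 ± 0.47 (n = 3), HFD CD11c- ATM at 5.67 ± 0.48 (n = 3), WL CD11c- ATM at 5.06 ± 0.06 (n = 2), ND CD11c- ATM at 4.71 ± 0.39 (n = 2), HFD PA at 4.58 ± 0.41 (n = 3) and ND PA at 3.58 ± 0.21 (n = 3). In this order WL CD11c+ ATM overlapped with ND ATDC above it and with HFD CD11c- ATM below it, and ND CD11c- ATM overlapped with HFD PA. The arrays of the other neighbours (HFD and WL CD11c- ATM, WL and ND CD11c- ATM, HFD and ND PA) did not overlap. On each array the median over all genes with a row was between 3.37 and 3.69, so that the lean preadipocyte level was close to that of a typical gene. In these bulk samples fewer dividing cells and less RNA of these genes per cell cannot be told apart.

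**Figure D1:**
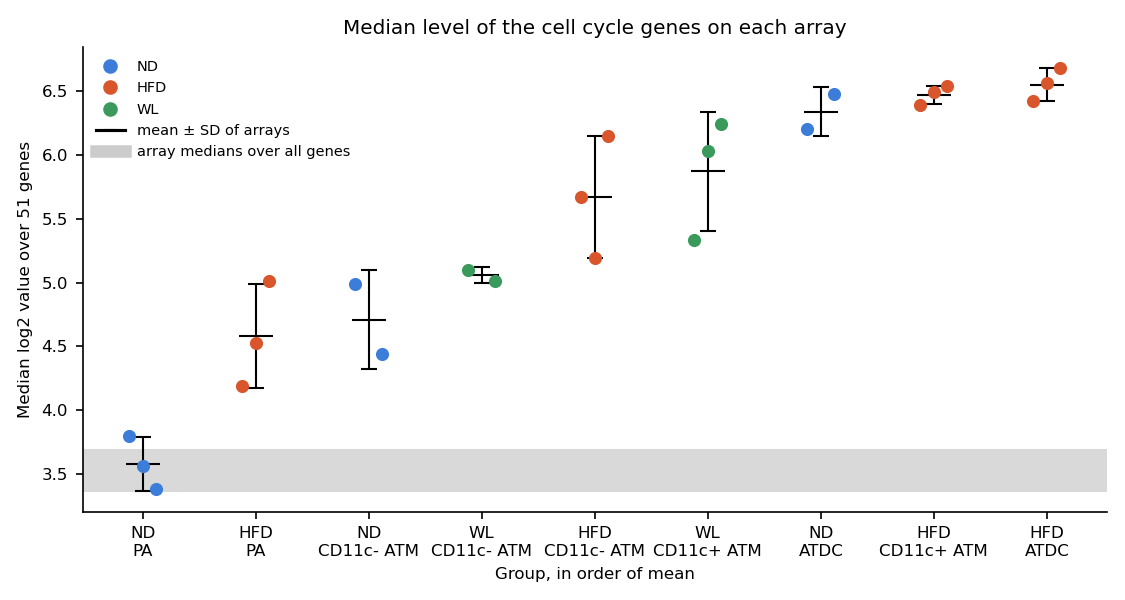
Median log2 value of the 51 cell cycle genes on each of 24 arrays (vertical axis, log2 units) by group in order of the mean, coloured by diet; bars are mean ± SD of the arrays, and the grey band spans the array medians over all genes. ND PA arrays (3.38 to 3.80) lie at the grey band, and ND ATDC, HFD CD11c+ ATM and HFD ATDC arrays lie between 6.20 and 6.68.

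Gene by gene the order was much the same. The group with the highest mean was HFD CD11c+ ATM for 19 of the 51 genes, ND ATDC for 16 and HFD ATDC for 16, and no other group held a highest mean. The lowest mean lay in ND PA for 41 genes, in ND CD11c- ATM for 4, in WL CD11c- ATM for 4 and in HFD PA for 2. On ND ATDC, HFD ATDC and HFD CD11c+ ATM arrays all 51 genes were above the array's own median, on ND PA arrays 46, 40 and 37 were.

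**Figure D2:**
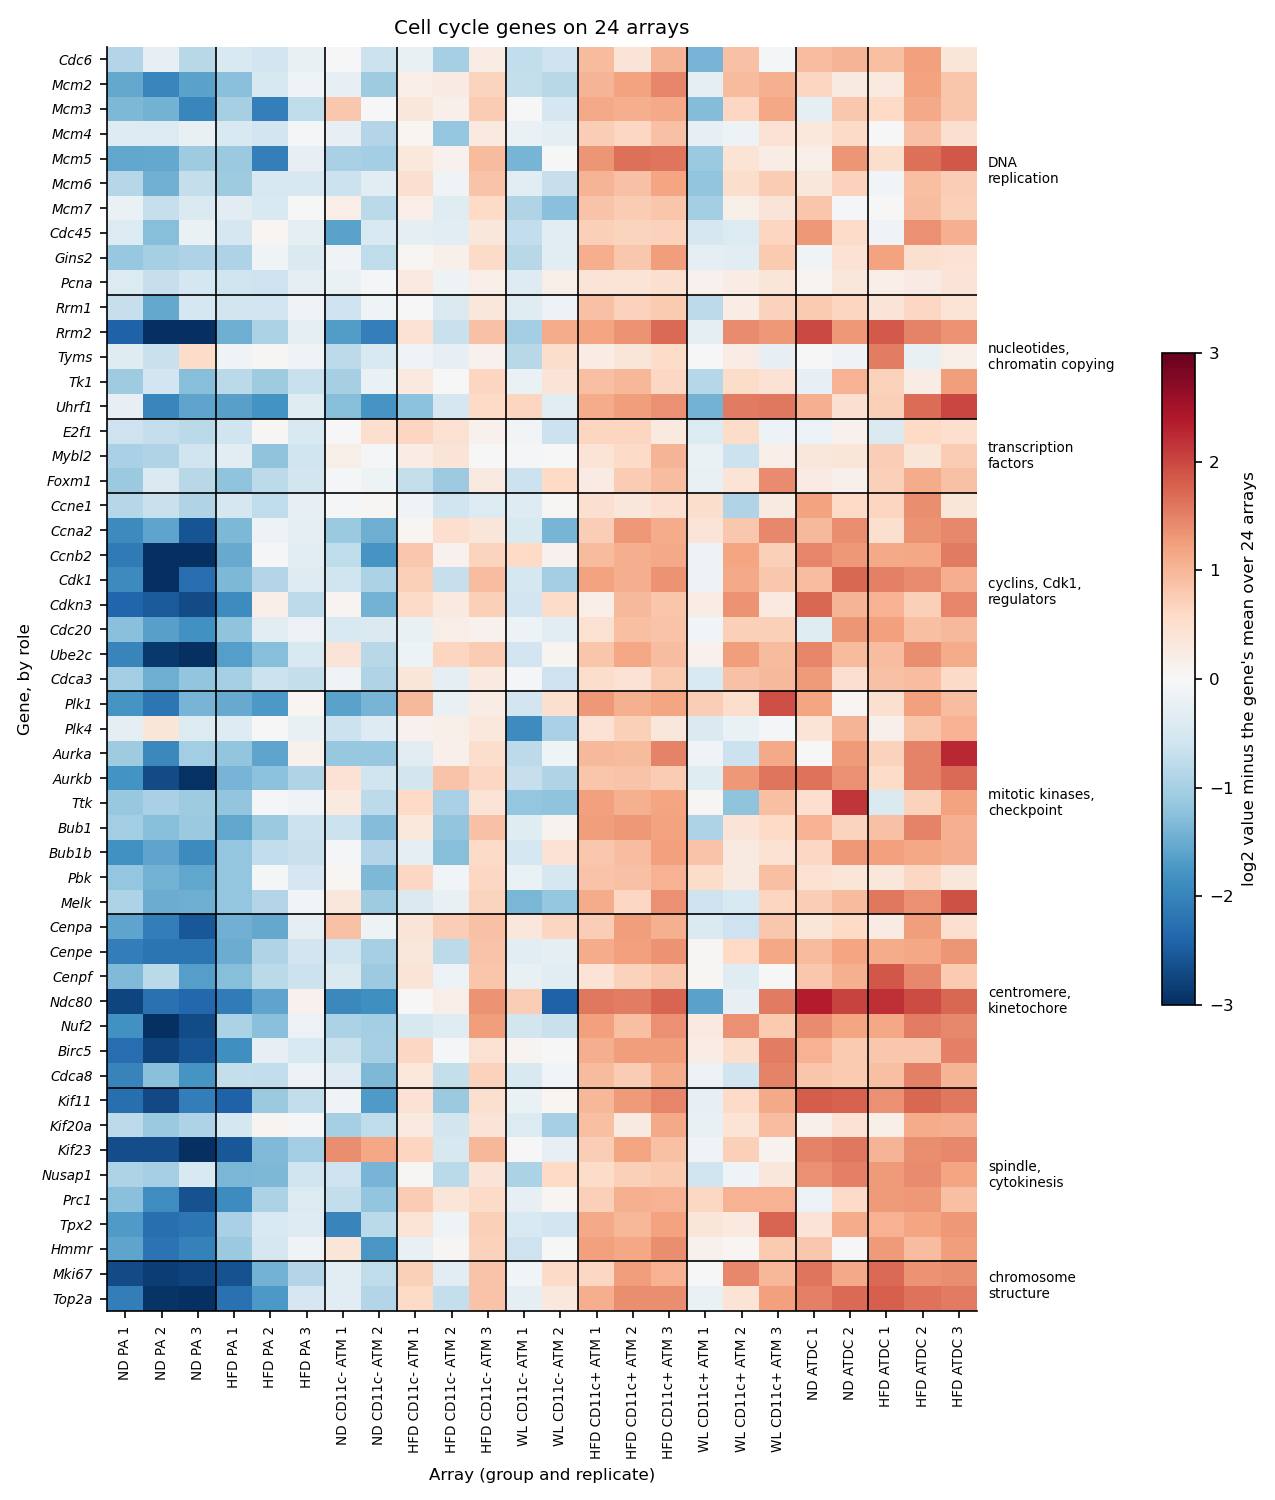
Log2 value of each of 51 genes on each of 24 arrays minus the gene's mean over the arrays (colour scale, log2 units; values beyond -3 or 3 take the end colour), with genes in rows by role and arrays in columns by group. ND PA columns are blue for nearly all genes, and the HFD CD11c+ ATM and ATDC columns are red for nearly all.

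The first question was how lean dendritic cells differ from lean CD11c- macrophages in these genes. In lean fat, division genes were far higher in ATDC than in CD11c- ATM: 20 of the 51 rose and none fell at an adjusted p under 0.05 in limma, where 3.67% of all tested genes rose and 4.60% fell. Differences are log2 values, given with the standard error (SE) of a limma fit over all 24 arrays, and p-values were adjusted by Benjamini and Hochberg's method over all tested genes. The median difference over the 51 genes was 1.41, against -0.01 over all tested genes.

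By role, 5 of 7 centromere and kinetochore genes rose, 5 of 8 of the cyclin and Cdk1 group, 3 of 9 mitotic kinase and checkpoint genes, 3 of 7 spindle genes, both genes of chromosome structure, 1 of 5 nucleotide and chromatin genes, 1 of 10 replication genes and none of the 3 transcription factors. Ndc80, the partner of Nuf2 at the kinetochore, was 7.16 and 6.83 in ND ATDC and 2.88 and 2.97 in ND CD11c- ATM. Both macrophage values lay below the array median, so the difference was at least 3.88 when the median was taken as the floor (fitted difference 4.07 ± 0.87, adjusted p = 0.0049). Rrm2, the regulated subunit of the enzyme that makes deoxynucleotides, was 8.36 and 7.68 in ATDC and 4.71 and 4.35 in ATM, a rise of 3.49 ± 0.63 (adjusted p = 0.0011). Ccnb2 was 8.49 and 8.34 against 6.26 and 5.25, a rise of 2.66 ± 0.54 (adjusted p = 0.0031). In none of these genes did the groups overlap.

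Kif11, the motor that pushes spindle poles apart, rose by 2.69 ± 0.58 (adjusted p = 0.0048), and Ccna2, the cyclin of S phase and G2, by 2.47 ± 0.45 (adjusted p = 0.0013). Nusap1 and Tpx2, which bundle and nucleate spindle microtubules, rose by 2.45 ± 0.45 (adjusted p = 0.0013) and 2.14 ± 0.44 (adjusted p = 0.0032). These are genes of entry into and passage through mitosis. Nuf2 rose by 2.28 ± 0.49 (adjusted p = 0.0052), Cenpe by 1.86 ± 0.41 (adjusted p = 0.0059) and Cenpf by 1.69 ± 0.37 (adjusted p = 0.006). Top2a, the topoisomerase that untangles sister chromosomes, rose by 2.21 ± 0.56 (adjusted p = 0.017), Mki67 by 1.91 ± 0.50 (adjusted p = 0.02), Cdk1 by 2.10 ± 0.50 (adjusted p = 0.011) and Birc5 by 1.75 ± 0.45 (adjusted p = 0.017). The other 6 that rose were Cdc45, Plk1, Cdkn3, Bub1, Cdca3 and Plk4, by 1.24 to 2.12. Cdc45 and Plk1 were each above the array median on 1 of 2 ATM arrays. The factor genes did not pass: Foxm1 differed by 0.29 (adjusted p = 0.85) and E2f1 by -0.28 (adjusted p = 0.78), and neither did Mcm5 at 1.75 (adjusted p = 0.079) or Pcna at 0.33 (adjusted p = 0.49).

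Of other cell cycle genes, lists of S phase, G2 and mitosis, G1 regulator and inhibitor genes were set beside the 51. In lean ATDC against lean CD11c- ATM 6 of 33 other S phase genes rose, among them Pole, a replicative polymerase subunit, by 2.18, and 15 of 57 other G2 and mitosis genes, led by Lmnb1 (lamin B1) at 2.82 and Shcbp1 at 2.60; none of these fell. Of 22 G1 genes 3 rose (Ccnd2 by 2.49, E2f8 by 2.31, Rbl1 by 1.95) and 2 fell (Cdk6 by 2.19, E2f5 by 1.95). Of 26 inhibitor and quiescence genes Cdkn1a, the p21 inhibitor, rose by 1.10, while Maf, which restrains macrophage self-renewal, fell by 3.28 and Txnip by 1.13, and Klf4 fell too. NK cell markers moved with this comparison: the median of 8 was 7.63 and 7.68 in ND ATDC (7 and 8 above the array median) and 3.78 and 3.98 in ND CD11c- ATM (6 of 8 above, with Ncr1 and Eomes above on neither array). The median of 9 T cell markers was 6.05 and 6.11 against 3.36 and 4.16. Their part in the result was not tested. Of the 20 genes, 5 (Rrm2, Ccna2, Nusap1, Ndc80 and Nuf2) passed with each array left out in turn. Counted over all 51, 7 genes passed without ND CD11c- ATM replicate 2, 11 without ND ATDC replicate 2 and 13 without ND ATDC replicate 1. A fit of these 2 groups alone called 12.

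The second comparison in lean fat set preadipocytes against CD11c- macrophages, and it shares the 2 macrophage arrays with the first. Lean preadipocytes had less of the mitotic genes: 17 of the 51 fell and none rose, where 10.8% of all tested genes fell and 12.6% rose. The median difference was -0.81, against -0.01 over all tested genes, and 31 genes lay lower on every PA array than on either ATM array, as did 24.7% of all tested genes. Both genes of chromosome structure fell, 5 of 8 of the cyclin group, 4 of 7 centromere genes, 2 of 9 mitotic kinase genes, 2 of 3 factors, 1 of 7 spindle genes and 1 of 10 replication genes.

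Kif23, a motor of the midbody that is needed to finish cytokinesis, was 7.05 and 6.82 in ND CD11c- ATM and 3.01, 3.01 and 2.02 in ND PA. It fell by 4.26 ± 0.43 (adjusted p = 3.8e-07), and 1 of 3 PA arrays was above its own median. Mki67 was 6.75 and 6.32 in ATM and 4.39, 4.25 and 4.31 in PA, a fall of 2.22 ± 0.46 (adjusted p = 0.00099). Top2a was 6.16 and 5.63 against 4.44, 3.57 and 2.95, a fall of 2.24 ± 0.52 (adjusted p = 0.0026). The groups did not overlap in any of these. Ube2c, which works with the anaphase-promoting complex to destroy cyclins, fell by 2.46 ± 0.44 (adjusted p = 0.00026), Cenpa, the histone of centromeres, by 2.42 ± 0.45 (adjusted p = 0.00033) and Aurkb, the passenger complex kinase, by 2.40 ± 0.52 (adjusted p = 0.0016). Birc5 of the same complex fell by 1.72 ± 0.41 (adjusted p = 0.0034). Aurkb was above the array median on 1 of 3 PA arrays, and Top2a, Ube2c, Cenpa and Birc5 were above it on 2 of 3. The activators E2f1 and Mybl2 fell by 0.96 ± 0.33 (adjusted p = 0.038) and 0.89 ± 0.28 (adjusted p = 0.026). Mybl2 was above the array median on 1 of 3 PA arrays.

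The other 8 that fell were Mcm3, Ccnb2, Cdkn3, Cdk1, Nuf2, Cenpe, Bub1b and Cdc20, by 1.12 to 1.97. Of these, Nuf2 was above the array median on 1 of 3 PA arrays. Replication genes had smaller differences, with a median of -0.41 over the 10: Mcm5 differed by -0.39 (adjusted p = 0.7) and Pcna by -0.43 (adjusted p = 0.17). Tyms (0.46, adjusted p = 0.53) and Plk4 (0.41, adjusted p = 0.41) stood at the other end. Among other cell cycle genes 12 of 57 for G2 and mitosis fell and none rose. Arhgap11a was below the array median on all PA arrays, at least 3.90 lower, and Ncaph, a condensin subunit, fell by 2.55. The G1 genes split, with Cdk6 down by 3.46, Ccnd1 by 1.73, Cdk2 by 1.46 and Rb1 by 1.28, and Ccnd2 up by 2.78, Cdk7 by 1.42 and Tfdp2 by 1.36. So did the 26 inhibitor and quiescence genes, of which 4 rose (Gadd45g, Gas1, Ccng2 and, by 1.58, Cdkn1c, the p57 inhibitor) and 3 fell (Klf2, Btg2 and Foxo3). Without ND CD11c- ATM replicate 1, 6 of the 17 passed: Kif23, Ube2c, Cenpa, Mki67, Top2a and Birc5. These also passed with each other array left out.

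The next question was what obesity did in each cell type. In preadipocytes 8 of the 51 genes rose with HFD and none fell, where 1.69% of all tested genes rose and 0.897% fell. The median difference was 0.73, against -0.02 over all tested genes, 47 of 51 estimates lay above 0, and for 24 genes every HFD array lay above every ND array, as did 9.03% of all tested genes. The ND PA arrays are those of the lean comparison above, so these comparisons are not independent. Of the cyclin and Cdk1 group 4 of 8 rose, of the centromere group 2 of 7, of the spindle group 1 of 7 and of the nucleotide group 1 of 5; none of the 10 replication genes passed, at a median of 0.27 (0.09 without HFD PA replicate 3 and 0.15 without ND PA replicate 2).

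Ccnb2 was 4.91, 3.78 and 2.98 in ND PA and 5.51, 6.99 and 6.69 in HFD PA, a rise of 2.51 ± 0.44 (adjusted p = 0.0028). Rrm2 was 3.97, 3.22 and 3.08 against 4.92, 5.43 and 6.11, a rise of 2.06 ± 0.52 (adjusted p = 0.036). Cdk1 was 4.07, 2.85 and 3.71 against 4.65, 5.12 and 5.61, a rise of 1.58 ± 0.41 (adjusted p = 0.043). In all 3 genes the diets did not overlap, and 1 ND array of each gene lay below its own median. Nuf2 rose by 1.72 ± 0.40 (adjusted p = 0.024), Birc5 by 1.70 ± 0.36 (adjusted p = 0.013) and Ube2c by 1.56 ± 0.40 (adjusted p = 0.04). Nuf2 was above the array median on 1 of 3 ND PA arrays, and Birc5 and Ube2c were above it on 2 of 3. Tpx2 rose by 1.44 ± 0.36 (adjusted p = 0.034) and Ccna2 by 1.44 ± 0.37 (adjusted p = 0.042). Of these 8, Rrm2 serves DNA synthesis, Ccna2 both S phase and G2, and the others act from G2 through mitosis.

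Mki67 was 4.39, 4.25 and 4.31 in ND PA and 4.47, 5.67 and 6.21 in HFD PA. All HFD arrays were higher, but the lowest by little, and the difference of 1.14 did not pass (adjusted p = 0.2). Top2a differed by 1.36 (adjusted p = 0.16), Mcm5 by 0.25 (adjusted p = 0.95), Pcna by 0.05 (adjusted p = 0.98), E2f1 by 0.38 (adjusted p = 0.75), Foxm1 by -0.06 (adjusted p = 0.99) and Nusap1, the lowest of the 51, by -0.31 (adjusted p = 0.89). Outside the 51, Cdk6, the G1 kinase partner of D cyclins, rose by 1.93 ± 0.49 (adjusted p = 0.04), and so did Cdkn2c, the p18 inhibitor of Cdk4 and Cdk6, by 1.95 ± 0.42 (adjusted p = 0.014). Cdk6 was above the array median on 1 of 3 ND PA arrays. None of the 33 other S phase and 57 other G2 and mitosis genes passed, with medians of 0.28 and 0.29, the first 0.16 without HFD PA replicate 3.

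Markers of macrophages and of other cells moved with the PA arrays. The median of 12 macrophage markers was 5.56, 4.83 and 4.19 in ND PA (11 of 12 above the array median on each) and 6.67, 5.94 and 8.10 in HFD PA (11 or 12 of 12), where the set level was 3.80, 3.56 and 3.38 and then 4.19, 4.53 and 5.01. Itgax was 4.34, 3.16 and 2.55 in ND PA and 5.70, 4.71 and 7.26 in HFD PA. The median of 8 endothelial markers was 3.13 to 4.55 in ND PA and 4.89 to 5.10 in HFD PA. That of 7 monocyte markers was 6.29 to 7.38 and 7.07 to 7.77, overlapping. Their part in the result was not tested. Only Ccnb2 passed with each array left out in turn: of all 51 genes 1 passed without ND PA replicate 2, ND PA replicate 3 or HFD PA replicate 3, 2 without HFD PA replicate 2, 7 without ND PA replicate 1 and 10 without HFD PA replicate 1. The median was 0.48 without HFD PA replicate 3. No filter left 5 calls, a fit of both PA groups alone 2, and array weights 15.

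**Figure D3:**
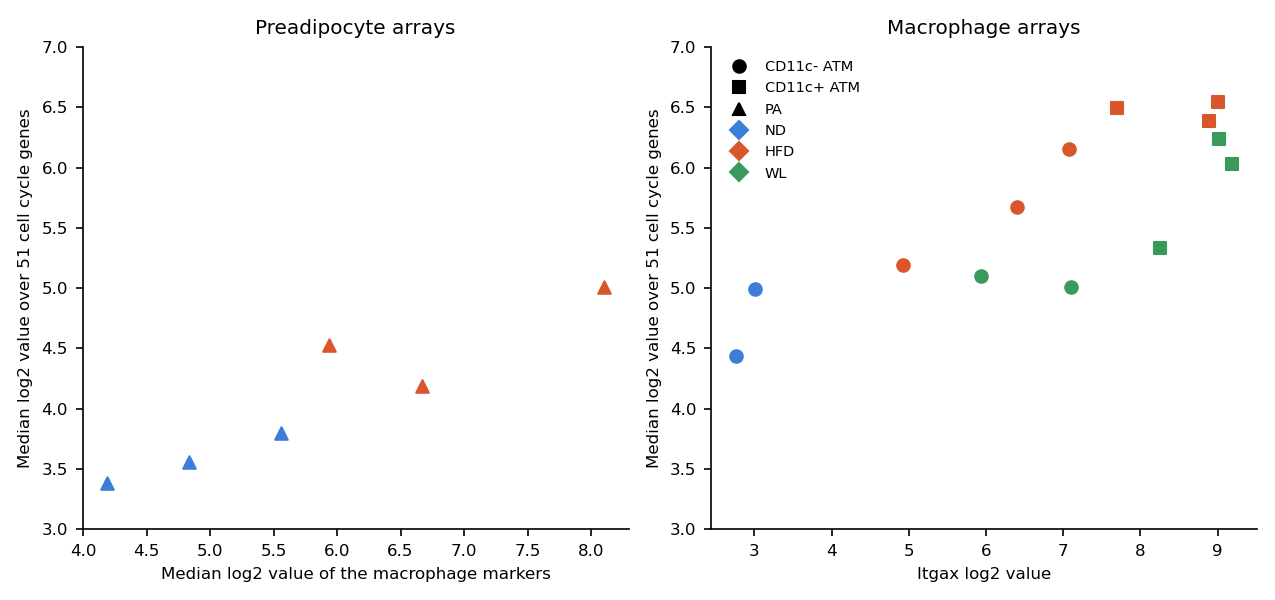
Median log2 value of the 51 cell cycle genes on an array (vertical axes) against the median of 12 macrophage markers on the 6 preadipocyte arrays (left) and against Itgax on the 13 macrophage arrays (right), both in log2 units, with diet by colour and cell type by symbol. HFD PA replicate 3 has the highest value on both axes of the left panel (8.10 and 5.01), and ND CD11c- ATM arrays are lowest in Itgax on the right.

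In CD11c- macrophages most estimates for HFD against ND lay above 0 too, but none of the 51 genes passed limma's test, where 0.439% of all tested genes rose and 0.174% fell. The median difference was 0.88, against 0.01 over all tested genes, and 47 of 51 estimates lay above 0. At an unadjusted p under 0.05 there were 23 genes, all higher, against 5.11% of all tested genes. For 23 genes every HFD array lay above both ND arrays, as did 14.1% of all tested genes. Both ND arrays also served in the lean comparisons with ATDC and PA.

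Tpx2 was 5.77, 5.25 and 6.09 in HFD CD11c- ATM and 3.38 and 4.56 in ND CD11c- ATM, with no overlap and a difference of 1.73 ± 0.40 (adjusted p = 0.053). Prc1, which bundles the central spindle, differed by 1.53 ± 0.38 (adjusted p = 0.09), Ccna2 by 1.60 ± 0.41 (adjusted p = 0.11), Ccnb2 by 1.81 ± 0.49 (adjusted p = 0.13) and Rrm2 by 2.07 ± 0.58 (adjusted p = 0.14). Ndc80, whose ND values lay below the array median, was at least 2.21 higher with HFD against that floor (adjusted p = 0.26). Mki67 was 7.79, 6.75 and 7.94 in HFD and 6.75 and 6.32 in ND, so the diets met at 6.75, and the difference was 0.96 (adjusted p = 0.58). Kif23 went the other way, at 6.30, 5.19 and 6.66 against 7.05 and 6.82, a difference of -0.89 (adjusted p = 0.6), and Foxm1 differed by -0.42 (adjusted p = 0.91). Of the other lists Gadd45b, a stress-induced growth arrest gene, rose by 2.02 (adjusted p = 0.046).

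Itgax was below the array median on both ND CD11c- ATM arrays and 6.40, 4.93 and 7.07 on the HFD arrays, whose set levels were 5.67, 5.19 and 6.15. The preadipocyte and fibroblast markers were at 7.19 to 9.25 on the HFD arrays (11 of 11 above the array median) and at 5.03 and 6.02 on the ND arrays (10 of 11). The median of 7 mast cell markers was 2.29 to 7.23 on the HFD arrays (2 to 6 of 7 above the array median). On the ND arrays it was 1.94 and 2.72 (1 of 7). The part of Itgax and of these lists in the result was not tested. Of the 51, 3 passed without HFD CD11c- ATM replicate 2 and 1 without ND CD11c- ATM replicate 2, and 3 passed with array weights. The median was 0.57 without HFD CD11c- ATM replicate 3 and 0.58 without ND CD11c- ATM replicate 2.

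In dendritic cells HFD and ND were not shown to differ in these genes. None of 51 passed limma's test, 1 had an unadjusted p under 0.05 (8.62% of all tested genes did), and 0 passed under each alternative setting and with each array left out. The test called 0.155% of all tested genes higher and 0.103% lower. The median difference was 0.13, and the diets did not overlap for 6 genes higher and 3 lower with HFD, against 11.9% and 10.1% of all tested genes. Mki67 was 8.68 and 8.21 in ND and 8.78, 8.43 and 8.47 in HFD, overlapping, a difference of 0.12 with a 95% interval from -0.84 to 1.07. For Ccnb2 the difference was -0.10 (interval -1.13 to 0.93). Prc1 had the largest estimate, 0.97 ± 0.38 (adjusted p = 0.43). With HFD the NK cell markers were 7.45, 5.08 and 5.15, against 7.63 and 7.68 in ND. The T cell markers were at 4.41 to 5.34 with HFD, against 6.05 and 6.11 in ND. The part of both lists was not tested.

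Whether the HFD effect differed between cell types was tested as an interaction. Between PA and CD11c- ATM 0 of the 51 genes passed limma's test (0.277% of all tested genes did), 2 had an unadjusted p under 0.05 (9.04% of all tested genes did), and the median difference of differences was 0.05. Kif23 came nearest, with an HFD effect 2.24 ± 0.58 larger in PA (adjusted p = 0.13), and 1 gene passed without HFD PA replicate 1. Between ATDC and CD11c- ATM 0 passed (0.0581% of all tested genes did), also with each array left out, and 6 had an unadjusted p under 0.05, all with a smaller effect in ATDC (3.60% of all tested genes had such a p and direction). The median was -0.68 there, and -0.33 without ND CD11c- ATM replicate 2. Rrm2 differed by -2.14 ± 0.81 (adjusted p = 0.54). Ndc80 is given no value here, since both ND CD11c- ATM arrays lay below their median for it.

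**Figure D4:**
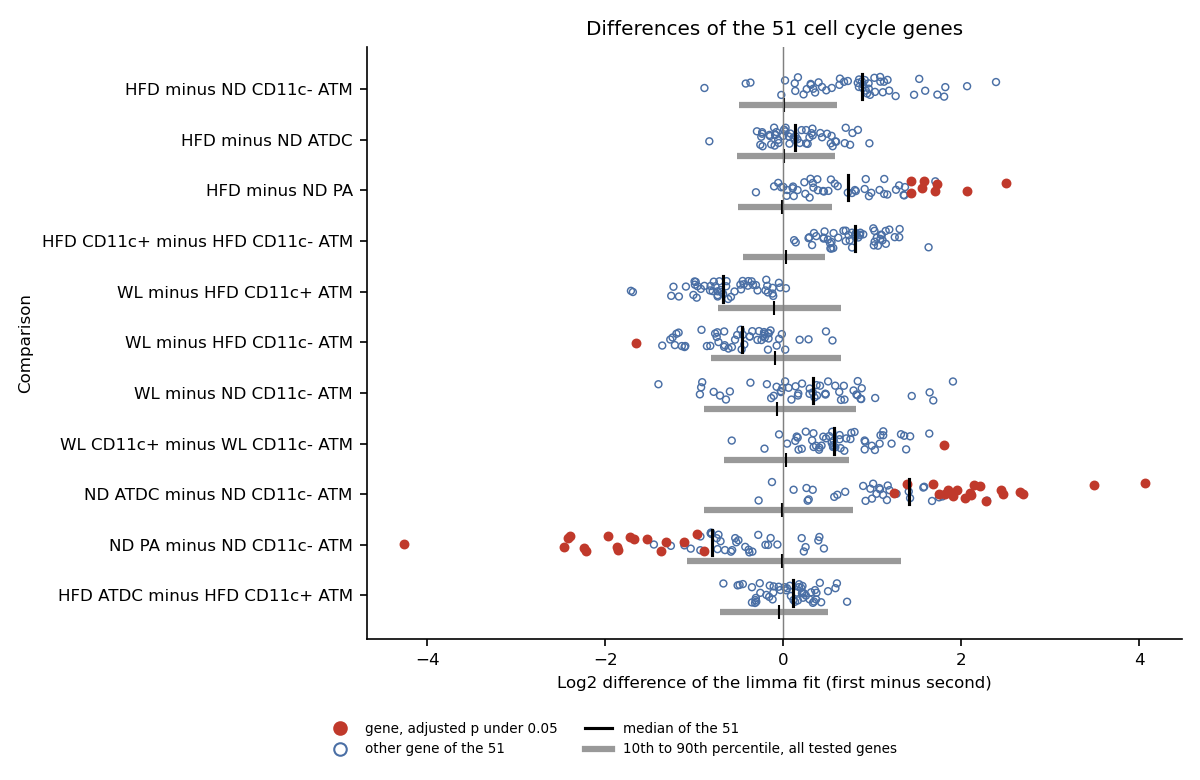
Log2 difference of each of 51 genes in 11 comparisons (horizontal axis, first group minus second), filled where limma's adjusted p was under 0.05; black lines are the medians of the 51 and grey bars span the 10th to 90th percentile of all tested genes. Filled points lie mainly in ND ATDC minus ND CD11c- ATM (20 higher), ND PA minus ND CD11c- ATM (17 lower) and HFD minus ND PA (8 higher).

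In obese fat all 51 genes had higher estimates in CD11c+ than in CD11c- macrophages, at a median of 0.81 against 0.04 over all tested genes, but none passed limma's test. In that comparison 0.00645% of all tested genes rose, which was 1 gene, and 24 of the 51 had an unadjusted p under 0.05, all higher, against 3.05% of all tested genes. For 38 genes every CD11c+ array lay above every CD11c- array, as did 11.1% of all tested genes. No member passed with any array left out or under any alternative setting. Bub1b, a spindle checkpoint kinase, was 6.37, 6.49 and 6.79 in CD11c+ and 5.28, 4.29 and 6.15 in CD11c- cells, without overlap, and its difference was 1.31 ± 0.36 (adjusted p = 0.4). Cenpe differed by 1.10 ± 0.33 (adjusted p = 0.45) and Mcm4 by 1.01 ± 0.32 (adjusted p = 0.45). The CD11c+ arrays lay close together and the CD11c- arrays apart: Top2a was 7.60, 7.89 and 7.91 against 7.10, 5.78 and 7.36. Mki67 overlapped, at 7.71, 8.34 and 8.11 against 7.79, 6.75 and 7.94 (difference 0.56, adjusted p = 0.92). Preadipocyte and fibroblast markers were lower in CD11c+ cells, at 5.85 to 6.90 against 7.19 to 9.25, as was the median of 7 monocyte markers, at 5.80 to 6.68 against 7.30 to 7.52 (all 7 above the array median in both), and their part was not tested.

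After weight loss the same sort showed 1 gene that rose in CD11c+ over CD11c- ATM and none that fell, where 0.691% of all tested genes rose and 0.652% fell. Ccna2 was 6.59, 7.01 and 7.65 in CD11c+ and 5.74 and 4.81 in CD11c- cells, a rise of 1.81 ± 0.41 (adjusted p = 0.034) without overlap. Plk4, the kinase that starts centriole copying, came next at 1.22 ± 0.31 (adjusted p = 0.058), then Mcm2 at 1.36 ± 0.39 (adjusted p = 0.087). The median over the 51 was 0.57, 48 estimates lay above 0, and 17 genes did not overlap, higher in CD11c+, against 12.5% of all tested genes. Without WL CD11c+ ATM replicate 1 the median was 0.95 and 4 genes passed, and 8 passed when HFD CD11c- ATM replicate 3 and HFD ATDC replicate 1 were left out too. No member passed without WL CD11c+ ATM replicate 2 or 3, and Ccna2 also lost its call without WL CD11c- ATM replicate 2. Centring each array on its median called 2, and array weights or a fit of the 2 groups alone called 0.

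Outside the 51, Prim1, the primase subunit, was below the array median on both WL CD11c- ATM arrays, and the other macrophage groups exceeded it by at least 1.75 (WL CD11c+), 1.99 (ND CD11c-) and 2.01 (HFD CD11c-). Dut rose by 1.18 and the condensin subunit Ncapd2 by 1.85 in WL CD11c+ over WL CD11c- ATM. The median of 7 mast cell markers was 9.23 and 9.32 in WL CD11c- and 5.82 to 7.06 in WL CD11c+ ATM, that of the preadipocyte and fibroblast markers 8.89 or higher against 7.61 to 8.32. In HFD CD11c- ATM these lists were at 2.29 to 7.23 and at 7.19 to 9.25. Monocyte markers were at 8.59 and 8.65 in WL CD11c- ATM, at 6.38 to 7.61 in WL CD11c+ ATM and at 7.30 to 7.52 in HFD CD11c- ATM. Their part in these results was not tested.

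The last question was what followed weight loss within a cell type, in comparisons that share their groups with those above. In CD11c+ ATM 50 of 51 estimates for WL against HFD lay below 0, at a median of -0.68 against -0.10 over all tested genes, and none passed limma's test, where 0.697% of all tested genes fell and 0.632% rose. At an unadjusted p under 0.05 there were 17 genes, all lower, against 12.5% of all tested genes, and for 17 genes every WL array lay below every HFD array, against 17.3%. Mcm5 was 4.26, 5.79 and 5.58 in WL and 6.70, 7.01 and 6.98 in HFD, without overlap, a difference of -1.69 ± 0.49 (adjusted p = 0.078). Mybl2 differed by -0.89 ± 0.25 (adjusted p = 0.076) and Melk, a kinase of dividing cells, by -1.17 (adjusted p = 0.12). The 10 replication genes had a median of -0.97 and the 8 of the cyclin and Cdk1 group one of -0.24. Without WL CD11c+ ATM replicate 1 these medians were -0.46 and 0.02. The cyclin median was also -0.42 and -0.44 without WL CD11c+ ATM replicates 2 and 3, and -0.38 without HFD CD11c+ ATM replicate 1. Ccnb2 was 6.87, 8.21 and 7.74 against 7.99, 8.11 and 8.17, overlapping, and Mki67 differed by -0.17 (adjusted p = 0.85). Among the other lists Lig1, the ligase of lagging strands, fell by 1.22, Slbp by 0.86, Cenpk by 1.97 and Zwilch by 1.52, while Gas1, a growth arrest gene below the array median on all HFD CD11c+ arrays, was at least 1.39 higher. The preadipocyte and fibroblast markers were at 7.61 to 8.32 in WL and at 5.85 to 6.90 in HFD CD11c+ ATM, the mast cell markers at 5.82 to 7.06 and at 2.23 to 5.58, and their part was not tested. Without WL CD11c+ ATM replicate 1 the median was -0.35, and without WL CD11c+ ATM replicate 3 it was -0.83 and 6 genes passed.

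In CD11c- ATM 1 of the 51 genes fell in WL against HFD and none rose, where 1.79% of all tested genes fell and 1.17% rose. Plk4 was 4.10 and 5.01 in WL and 6.13, 6.17 and 6.30 in HFD, without overlap, a fall of 1.65 ± 0.31 (adjusted p = 0.0063). It did not pass without WL CD11c- ATM replicate 1 (adjusted p = 0.094) or in a fit of the 2 groups alone. The median over the 51 was -0.47 against -0.09 over all tested genes, and -0.23 without HFD CD11c- ATM replicate 3. For 17 genes both WL arrays lay below every HFD array, against 21.2% of all tested genes. Ccna2 differed by -1.24 ± 0.41, Mcm7 by -1.22 ± 0.41 and Mcm2 by -1.14 ± 0.39 (adjusted p = 0.11, 0.11 and 0.12), while Mki67 (-0.17), Ccnb2 (-0.16) and Rrm2 (-0.16) had adjusted p of 0.9 or more. Outside the 51, Ncapd2 fell by 1.93, Rbl1 by 1.84, Cdk7 by 1.46 and Fzr1, an activator of the anaphase-promoting complex, by 1.24, and Gadd45g rose by 2.48, Gas1 by 2.21 and Asf1b by 1.83. Gadd45g and Gas1 were also higher in ND PA than in ND CD11c- ATM. NK cell markers were at 5.22 and 5.76 in WL and at 3.64 to 4.08 in HFD CD11c- ATM. B and plasma cell markers were at 4.65 and 4.69 against 3.16 to 3.47. Endothelial markers were at 5.2 and 5.72 against 3.51 to 4.8. Mast cell, monocyte, and preadipocyte and fibroblast markers of both groups are given above. The part of all these lists was not tested. The weight loss effects in CD11c+ and CD11c- cells were not shown to differ: 0 of the 51 passed limma's interaction test (0.161% of all tested genes did), also with each array left out, and 1 of them had an unadjusted p under 0.05, against 6.74% of all tested genes (Plk4, 0.93 ± 0.42, adjusted p = 0.7).

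CD11c- ATM after weight loss were also set against those of lean mice. None of the 51 passed limma's test, where 3.23% of all tested genes rose and 2.95% fell, and 5 had an unadjusted p under 0.05, 3 higher and 2 lower, against 19.6% of all tested genes. Ccnb2 was 7.63 and 7.16 in WL and 6.26 and 5.25 in ND, above without overlap, a difference of 1.65 ± 0.54 (adjusted p = 0.08). Rrm2, at 5.37 and 7.51 against 4.71 and 4.35, differed by 1.91 ± 0.63 (adjusted p = 0.083). Kif23 was lower, at 5.65 and 5.42 against 7.05 and 6.82, a difference of -1.40 ± 0.47 (adjusted p = 0.088). In each of these 3 genes the arrays stood apart, but the adjusted p missed the threshold. The median over the 51 was 0.33, and 0.11 without ND CD11c- ATM replicate 2; 1 gene passed without WL CD11c- ATM replicate 1 or 2. For 15 genes both WL arrays were higher and for 7 lower, against 19.9% and 28.2% of all tested genes. Outside the 51, Ccnd2 (mean 7.45 in WL against 5.64 in ND) and Asf1b (6.7 against 5.23) rose. Ncaph (4.08 against 5.64) fell, as did Prim1, given above. Of the inhibitor and quiescence genes Gadd45b rose by 2.88, Gadd45g by 2.77, Gas1 by 2.03 and Cdkn1a by 1.69, and Fzr1 fell by 1.21. Gas1 and Gadd45g were also higher in ND PA than in ND CD11c- ATM. Their means were 5.93 and 6.0 in ND PA, 5.72 and 6.2 in WL CD11c- ATM, and 3.69 and 3.43 in ND CD11c- ATM. Markers of other cells moved with this comparison: mast cell markers were at 9.23 and 9.32 in WL (7 of 7 above the array median) and at 1.94 and 2.72 in ND (1 of 7, with Cpa3, Mcpt4, Tpsb2, Fcer1a and Hdc above on neither array). Preadipocyte and fibroblast markers were at 8.89 or higher against 5.03 and 6.02, and NK cell markers at 5.22 and 5.76 against 3.78 and 3.98. The median of 8 B and plasma cell markers was 4.65 and 4.69 against 3.71 and 3.76, and that of 8 endothelial markers 5.2 and 5.72 against 3.74 and 3.98. The part of these in the result was not tested. This comparison shares its arrays with those of HFD against ND and WL against HFD.

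In obese fat, where dendritic cells and CD11c+ macrophages had the highest levels, these sorts were not shown to differ. None of 51 passed limma's test with all arrays, with each array left out or under any alternative setting, where 1.72% of all tested genes rose and 2.44% fell. The median difference, ATDC minus CD11c+ ATM, was 0.12, and it was -0.01 without HFD ATDC replicate 3. Only Cenpf had an unadjusted p under 0.05 (0.72 ± 0.30, adjusted p = 0.24), where 15.7% of all tested genes did. For Mki67 the values were 8.78, 8.43 and 8.47 against 7.71, 8.34 and 8.11, without overlap. The difference was 0.50 with an interval from -0.35 to 1.36. Of the other lists Ccnd2 rose by 1.77 and Hmgb2 by 0.71 in ATDC, and Maf fell by 3.23. NK cell markers were at 5.08 to 7.45 in HFD ATDC and at 3.71 to 4.07 in HFD CD11c+ ATM. Monocyte markers were at 7.41 to 8.55 and at 5.80 to 6.68, and T cell markers at 4.41 to 5.34 and at 3.73 to 4.43. Their part in this comparison was not tested.

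**Figure D5:**
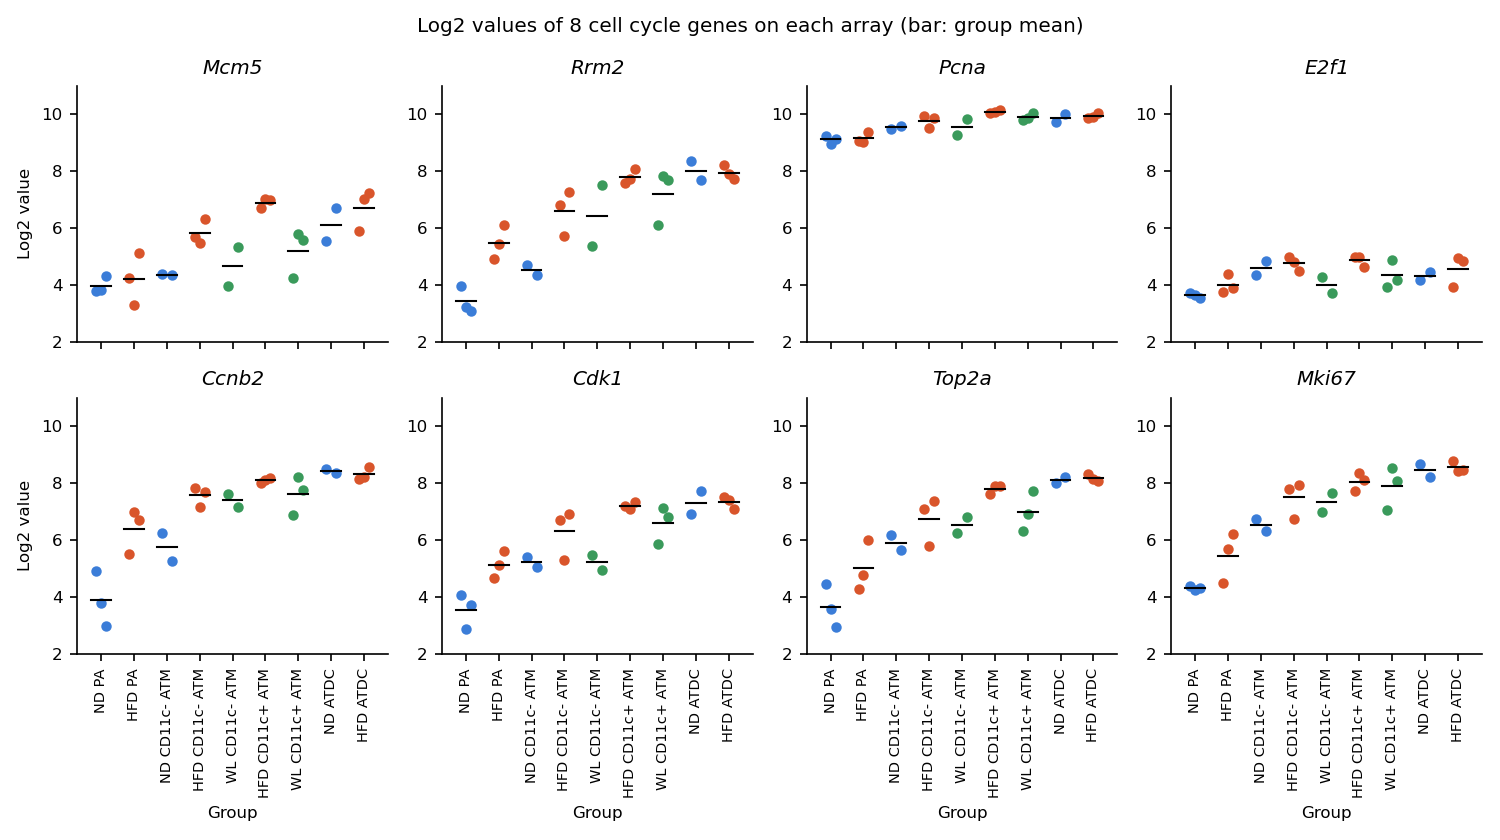
Log2 values of 8 genes on each array (vertical axes), by group, coloured by diet (blue ND, orange HFD, green WL), with group means as bars. Ccnb2, Cdk1, Top2a, Mki67 and Rrm2 are lowest in ND PA and Pcna and E2f1 span a narrower range; the levels of different genes are not comparable.

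The 51 genes moved together across arrays to different degrees. Over the 24 arrays, Pearson's correlation of a gene with the mean of the other 50 ran from 0.369 (Tyms) to 0.989 (Cenpe), with a median of 0.896, and 40 genes had one above 0.8. Arrays of a group share their cell type. After each gene's group means were taken out the correlation ran from -0.128 (Tyms) to 0.913 (Cenpe), with a median of 0.611, and it was near 0 for Mybl2 (-0.076), Ccne1 (-0.019) and E2f1 (0.06). All of these are descriptions over arrays that also share normalization.

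All genes with a row outside the 51, tested or not, were ranked by their correlation with the members' mean over the 24 arrays. The 10 highest were Pik3cb (0.951), F10 (0.949), Cip2a (0.948), Alcam (0.948), Dlgap5 (0.948), Septin9 (0.942), Racgap1 (0.941), Dcaf4 (0.941), Sema4d (0.938) and Smc2 (0.936). Dlgap5, Racgap1 and Smc2 act in mitosis and were in the lists above. Within groups the correlation was 0.913 for Dlgap5, 0.762 for Smc2 and 0.759 for Racgap1, and for the other 7 it ran from 0.497 (Sema4d) to 0.735 (Alcam). Without the 2 arrays farthest from the median of the members' mean, ND PA replicates 2 and 3, the 10 correlations were 0.921 to 0.952.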

How the data were processed

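RNA of sorted cells was amplified as whole-transcript cDNA, biotin-labelled and hybridized to 1 single-colour array per sample, per the labels' protocols. The values used are log2 expression values that the authors deposited after RMA normalization with oligo, per the submitters' processing notes, which also name limma and give no versions. No source used here states whether limma changed the deposited values. The table held 41345 probe rows, of which 23521 named 1 gene, 1814 several and 16010 none, by the platform's annotation; 23328 of the first were matched to RefSeq gene identifiers and no symbol changed. The files give no spot backgrounds, so the array median stood in for background, and the number of arrays limits the precision.

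A gene was tested where at least 2 arrays exceeded their own median (15496 of 22180 genes). All 24 arrays were fitted with 1 mean per group in limma 3.58.1 (R 4.3.3; lmFit, eBayes; 15 residual degrees of freedom; two-sided), with 11 comparisons and 3 interactions, each adjusted by Benjamini and Hochberg's method over all tested genes at 0.05. A gene with no array of the dimmer group above its median has a least difference, against that median. The scripts were tested on simulated data. Named members were all that passed, up to 20 by adjusted p, both extremes of a comparison and 10 anchor genes (Mki67, Top2a, Cdk1, Ccnb2, Birc5, Mcm5, Rrm2, Pcna, E2f1, Foxm1); of each other list, up to 4 called genes per direction and the main cyclins and inhibitors. Other members named with an adjusted p above 0.05 were chosen after their values were seen. The 53 members and all lists (other S phase, G2 and mitosis, G1 regulators, inhibitors; markers of macrophages, dendritic cells, preadipocytes, monocytes, NK, T, B, mast and endothelial cells) were chosen with earlier results of these data known. Alternatives were no filter, a filter at 3 arrays, the mean of a gene's rows, median-centring, the compared groups alone, array weights, trended robust variance, the replicate number as a block, each array left out and, added after seeing the data, 3 arrays that stood apart left out together.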

Additional observations from a re-analysis of the deposited data

How the results depend on the processing

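Members called and the median member difference were recomputed under 9 alternatives and with each array left out. Of the alternatives other than left-out arrays, counts of members called stayed within 1.5 times in 111 cases and medians within the spread between arrays in 78. Array weights turned the sign of 2 of those medians, to -0.064 for the HFD interaction of PA and to 0.084 for the WL interaction. The exceptions follow, and the cause was not tested. Array weights called 3 for HFD against ND CD11c- ATM, 15 for HFD against ND PA and 0 for WL CD11c+ against CD11c- ATM. A fit of the compared groups alone called 2 for HFD against ND PA, 12 for ND ATDC against ND CD11c- ATM, and 0 for WL against HFD CD11c- ATM and for WL CD11c+ against CD11c- ATM. No filter gave 5 for HFD against ND PA, and median-centring 2 for WL CD11c+ against CD11c- ATM. Without the 3 arrays that stood apart (chosen after seeing the data), WL CD11c+ against CD11c- ATM had 8 calls and a median of 0.951, and WL against HFD CD11c+ ATM a median of -0.350.

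With single arrays left out, calls ranged from 0 to 3 for HFD against ND CD11c- ATM, 1 to 10 for HFD against ND PA, 0 to 6 for WL against HFD CD11c+ ATM, 0 to 1 for WL against HFD and against ND CD11c- ATM, 0 to 4 for WL CD11c+ against CD11c- ATM, 7 to 17 for ND ATDC and 6 to 18 for ND PA against ND CD11c- ATM, and 0 to 1 for the HFD interaction of PA. Medians ranged from -0.832 to -0.350 for WL against HFD CD11c+ ATM, 0.416 to 0.951 for WL CD11c+ against CD11c- ATM, 1.195 to 1.791 for ND ATDC against ND CD11c- ATM and -0.789 to -0.332 for the HFD interaction of ATDC. In a group of 2, the lone array left was assumed to vary like the other groups.

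Deviations of same-numbered arrays correlated at -0.131 to 0.252 over 87 pairs, 4 of them above 0.1. Those of differently numbered arrays correlated at -0.188 to 0.195 over 168 pairs, also 4 above 0.1. The highest value, 0.252, was between HFD CD11c+ and HFD CD11c- ATM replicates 2. A pairing by replicate number was thus not shown, but groups of 2 or 3 arrays cannot exclude shared pools. With the replicate number as a block, 1 member was called for WL against HFD CD11c+ ATM, 23 for ND ATDC and 21 for ND PA against ND CD11c- ATM and 8 for HFD against ND PA. Low genes are limited by signal over background, which these normalized values do not give probe by probe, and groups of 2 or 3 arrays limit the rest.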
